A study of Mus musculus with 24 samples.

Results

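The 36 genes described here are a set of glycolysis and hypoxia-response genes, selected by symbol from the 37979 genes of the deposited expression table. All 36 were found, each by 1 symbol, and all 36 passed the filter on low values. They were followed in macrophages and monocytes sorted by flow cytometry from the lungs of male C57BL/6 mice aged 10 to 16 weeks. LLC-Luc cells, a mouse Lewis lung carcinoma line that carries luciferase, had been placed in the left lung lobe in Matrigel at 100000 cells per injection. MacB3 cells (CD11b+, Ly6G-, CD64 high, CD11c+) were taken at week 3 (MacB3-3wk) and week 2 (MacB3-2wk) of tumour growth. MacB2 cells (CD11b+, Ly6G-, CD64 intermediate, CD11c-) were taken at the same times (MacB2-3wk, MacB2-2wk) and from uninjected lungs (MacB2-N). MacA cells (SiglecF+, CD11c+) came from week 2 (MacA-2wk) and from uninjected lungs (MacA-N). MacB1 cells (CD11b+, Ly6G-, CD64 low, CD11c+) came from uninjected lungs alone (MacB1-N). The labels give no genotype beyond the C57BL/6 strain, and each of the 8 groups had 3 libraries from 3 independent experiments, each made from 3 to 5 pooled mice. Tumour groups used the left lobe with its tumour and naive groups used every lobe, so the tumour comparisons also set these tissues apart.

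Glycolysis breaks glucose down to pyruvate in the cytosol and yields a little ATP without oxygen. When oxygen is short, the prolyl hydroxylases that mark the alpha subunit of hypoxia-inducible factor (HIF) for destruction slow down, the subunit pairs with ARNT, and the complex binds short DNA elements near genes for glucose uptake, glycolytic enzymes, lactate export and mitochondrial quality control. In macrophages the same programme is also switched on by inflammatory signals at normal oxygen, and lactate is itself a signal to these cells. Tumour tissue is commonly poor in oxygen, so these genes are often read in tumour macrophages.

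Expression was given as FPKM, fragments per unit of transcript length, scaled to the mapped fragments of the library. Library depth is unknown from these values, microRNA genes held 43.7% to 75.1% of a library's FPKM, and genes above 0 FPKM numbered 15599 to 18522 per library. The 36 genes summed to 1755 to 7228 FPKM per library, or 0.336% to 1.11% of the protein-coding FPKM. The sorting markers followed the gates: Siglecf averaged 146 ± 23.1 FPKM in MacA-2wk and 231 ± 70.0 FPKM in MacA-N, against at most 5.25 FPKM in any MacB group. Fcgr1, which encodes CD64, averaged 181 ± 6.86 FPKM in MacB3-2wk and 131 ± 18.5 FPKM in MacB3-3wk, above 98.8 ± 16.3 FPKM in MacB2-2wk and 83.1 ± 7.53 FPKM in MacB2-3wk. Ly6g was listed at 0 in all 24 libraries. Sequencing lane 1 held the 6 MacA libraries and lanes 2, 3 and 7 held the MacB ones, so cell population and lane cannot be told apart wherever MacA is set against MacB.

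Most of the set was highest in tumour lung and lowest in naive lung. The highest group mean was in MacB2-3wk for 19 of the 36 genes and in some tumour group for 30, and the lowest was in MacA-N for 17 and in some naive group for 31. The same counts were not made over all genes, and more of the groups were from tumour lung than from naive lung. How far the set departs from other genes in these counts is thus not known. With each gene centred on its mean log2(FPKM + 1) over the 24 libraries, the median of the 36 genes was 0.42 to 0.76 in MacB3-3wk, 0.55 to 0.58 in MacB3-2wk and 0.62 to 0.80 in MacB2-3wk. It was -0.07 to 0.28 in MacB2-2wk, -0.61 to -0.28 in MacA-2wk, -0.60 to -0.32 in MacB2-N, -0.70 to -0.35 in MacB1-N and -0.96 to -0.62 in MacA-N. Genes differed widely in how far they moved. Ndrg1, a stress-responsive gene induced by hypoxia, spanned 5.57 log2 units between its highest and lowest group, and Egln3, a HIF prolyl hydroxylase, spanned 5.02. Gapdh spanned 0.35 log2 units, with group means of 23.6 to 30.3 FPKM, and Pfkp, a phosphofructokinase, spanned 0.63. The annotation held 143 pseudogenes near-identical to Gapdh, so its values are uncertain. In all, 12 of the 36 genes had at least 1 near-identical pseudogene that could share reads with them: Gapdh, Ldha, Pgk1, Eno1, Bnip3, Tpi1, Pgam1, Gpi1, Aldoa, Pkm, Bnip3l and Higd1a. For Bnip3l, Pgam1 and Higd1a such copies averaged more over the 24 libraries than the gene itself. The copies had 45.5, 20.0 and 15.0 FPKM and the genes 39.6, 14.1 and 5.09 FPKM, so the values of these genes are uncertain too. The pseudogenes Pgk1-rs7 and Gm5537 matched Pgk1 at 100% over 1255 and 1252 bases and stood at 0 FPKM. How shared reads were counted is not known, so Pgk1 is uncertain as well. With other genes counted besides pseudogenes, only 15 of the 36 had no near-identical stretch elsewhere. Mxi1 (17.1 FPKM) shared 196 identical bases with Gm10197 (22.1 FPKM). The 5 genes Eno2, Egln3, P4ha2, Adm and Ankrd37 had a mean under 1 FPKM in at least 1 group and passed the filter through the groups in which they were higher.

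**Figure D1:**
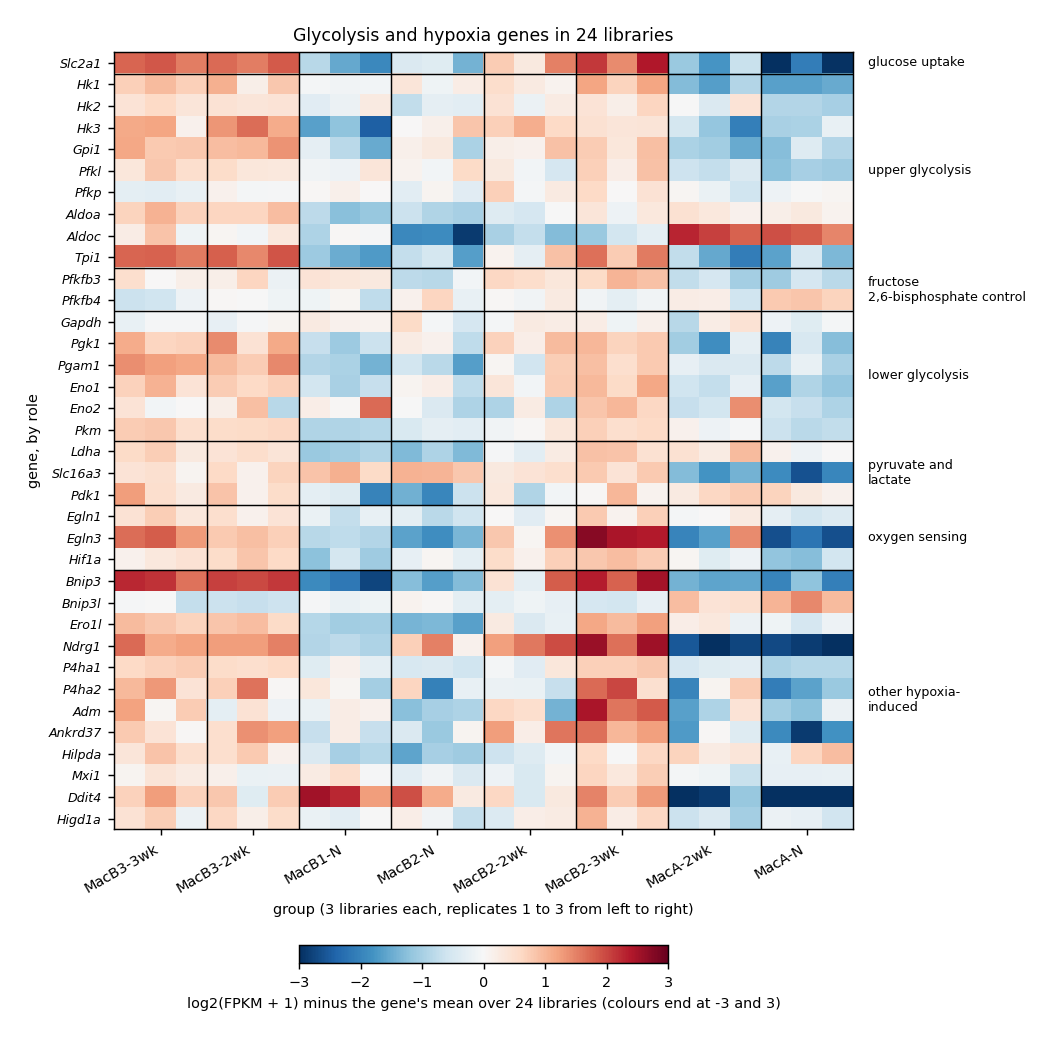
Heat map of the 36 genes (rows, grouped by role) in 24 libraries (columns, 3 per group); colour is log2(FPKM + 1) minus the gene's mean over all libraries. MacB3-3wk, MacB3-2wk and MacB2-3wk are mostly red and the naive groups mostly blue. Aldoc is highest in the MacA groups, and Bnip3l and Pfkfb4 have their highest mean in MacA-N and their lowest in a MacB3 group.

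The question put to MacB2 cells was how these genes stood in tumour lung at 2 and 3 weeks relative to naive lung. At 3 weeks 20 of the 36 genes rose past both limits of the test (adjusted p under 0.05 and at least 2-fold) and none fell; over all 17156 tested genes 14.7% were called, 9.67% higher and 5.04% lower. At 2 weeks 7 rose and none fell, against a background of 1.88% (1.66% higher and 0.227% lower). The median log2 fold change of the 36 genes was 1.08 at 3 weeks and 0.56 at 2 weeks, and that of all tested genes was 0.00 and 0.03. The fold changes are of FPKM + 1 and understate the change of low genes. Both comparisons used the same 3 MacB2-N libraries. In sorted bulk samples, a different mix of cells and a different amount of RNA per cell cannot be told apart.

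The gene of glucose uptake rose at both times. Slc2a1 (ENSMUSG00000028645, chr4:119108711-119137983 on GRCm38), the plasma membrane glucose transporter GLUT1, had 137, 142 and 68.8 FPKM in MacB2-N, 312, 226 and 523 FPKM in MacB2-2wk and 800.3, 491 and 977 FPKM in MacB2-3wk. The lowest tumour library was above the highest naive one at both times, and the 2-week and 3-week libraries overlapped. The rise was 3.00-fold at 2 weeks (log2 fold change 1.58, SE 0.41, adjusted p = 0.0496) and 6.54-fold at 3 weeks (log2 fold change 2.71, SE 0.41, adjusted p = 1.00e-04). Of the 9 enzymes from hexokinase to triose phosphate isomerase, 3 rose at 3 weeks (Aldoa, Aldoc and Tpi1) and 1 at 2 weeks (Aldoc). Tpi1 (ENSMUSG00000023456, chr6:124810586-124814296), which interconverts the triose phosphates, had 236, 269.6 and 123 FPKM in MacB2-N, 414, 319.6 and 715 FPKM in MacB2-2wk and 1227, 652 and 1142 FPKM in MacB2-3wk. Its tumour libraries all lay above the naive ones, with a called rise at 3 weeks (log2 fold change 2.28, SE 0.38, adjusted p = 2.50e-04) and none at 2 weeks (1.19, adjusted p = 0.123). The aldolases, which split the bisphosphorylated hexose, differed in level: at 3 weeks Aldoa averaged 804 ± 154 FPKM in MacB2-3wk and 392 ± 48.8 FPKM in MacB2-N (log2 fold change 1.02, SE 0.19, adjusted p = 6.39e-04), whereas Aldoc averaged 9.57 ± 2.86 FPKM in MacB2-3wk and 2.62 ± 1.22 FPKM in MacB2-N (log2 fold change 1.57, SE 0.32, adjusted p = 0.00135). Hk1 and Hk2, which trap glucose by phosphorylation, passed the adjusted p at 3 weeks but stayed under 2-fold (0.85, adjusted p = 0.0106 and 0.84, adjusted p = 0.00850). Hk3 did not pass (0.07, adjusted p = 0.952), nor did the phosphofructokinases Pfkl and Pfkp (0.39, adjusted p = 0.238 and 0.55, adjusted p = 0.0515) or the isomerase Gpi1 (0.84, adjusted p = 0.0904).

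Of the bifunctional enzymes that make and remove the activator of phosphofructokinase, Pfkfb3 rose and Pfkfb4 did not pass. Pfkfb3, whose kinase activity dominates, had 32.7, 31.9 and 54 FPKM in MacB2-N, 88.7, 82.7 and 72.1 FPKM in MacB2-2wk and 85.5, 117 and 105 FPKM in MacB2-3wk, and rose at both times (log2 fold change 1.06, SE 0.23, adjusted p = 0.0183 at 2 weeks and log2 fold change 1.38, SE 0.23, adjusted p = 2.38e-04). Every tumour library lay above every naive one. Pfkfb4 averaged 39.2 ± 3.12 FPKM in MacB2-3wk and 51.8 ± 16.2 FPKM in MacB2-N, with a log2 fold change of -0.35, adjusted p = 0.349.

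Of the 6 enzymes of lower glycolysis, Pgam1 and Eno1 rose at 3 weeks and none at 2 weeks. Pgam1, phosphoglycerate mutase, averaged 19.7 ± 2.81 FPKM in MacB2-3wk and 5.48 ± 2.33 FPKM in MacB2-N (log2 fold change 1.74, SE 0.31, adjusted p = 4.79e-04). Eno1, the main enolase, averaged 212 ± 41.1 FPKM in MacB2-3wk and 104 ± 33.8 FPKM in MacB2-N (log2 fold change 1.06, SE 0.27, adjusted p = 0.00727). Pkm, pyruvate kinase, passed the adjusted p just under 2-fold (log2 fold change 0.96, SE 0.13, adjusted p = 3.89e-05), with 431, 369.9 and 398 FPKM in MacB2-3wk and 191, 216 and 208 FPKM in MacB2-N, groups far apart for their spread. Pgk1, which makes the first ATP, averaged 11.7 ± 1.48 FPKM in MacB2-3wk and 5.91 ± 2.31 FPKM in MacB2-N and did not pass (0.94, adjusted p = 0.11). Gapdh (0.08, adjusted p = 0.908) and Eno2, the enolase best known from neurons (1.27, adjusted p = 0.104), did not pass either; Eno2 had 2.34, 2.74 and 1.92 FPKM in MacB2-3wk and 0.860, 0.390 and 0 FPKM in MacB2-N. At the end of the pathway Ldha (ENSMUSG00000063229, chr7:46841475-46855627), which turns pyruvate into lactate, had 75.5, 100.3 and 75.6 FPKM in MacB2-N, 187, 155 and 227 FPKM in MacB2-2wk and 354, 346 and 265 FPKM in MacB2-3wk. These 3 groups did not overlap at all, and Ldha rose at both times (log2 fold change 1.16, SE 0.19, adjusted p = 0.00200 at 2 weeks and log2 fold change 1.93, SE 0.19, adjusted p = 1.07e-06 at 3 weeks). Pdk1, the kinase that blocks pyruvate entry into mitochondria, rose at 3 weeks (log2 fold change 1.73, SE 0.44, adjusted p = 0.00750), with 25.6, 50.8 and 27.1 FPKM in MacB2-3wk and 8.52, 5.67 and 15.6 FPKM in MacB2-N. Slc16a3, the lactate exporter, passed at neither time: it averaged 165 ± 24.2 FPKM in MacB2-3wk, 137 ± 10.3 FPKM in MacB2-2wk and 202 ± 17.6 FPKM in MacB2-N, with estimates below 0 at both times (-0.29, adjusted p = 0.351 and -0.55, adjusted p = 0.200).

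All 3 genes of oxygen sensing rose at 3 weeks. Egln3 (ENSMUSG00000035105, chr12:54178981-54203860), a HIF prolyl hydroxylase that HIF itself induces, had 1.04, 0.722 and 1.43 FPKM in MacB2-N, 9.98, 5.54 and 15.3 FPKM in MacB2-2wk and 40.8, 33.3 and 31.6 FPKM in MacB2-3wk. The groups rose in steps without overlap, and the 3-week change was the largest of the set in MacB2 (log2 fold change 2.37, SE 0.56, adjusted p = 0.0300 at 2 weeks and log2 fold change 4.14, SE 0.56, adjusted p = 3.12e-05 at 3 weeks). Egln1, the main oxygen sensor of the family, averaged 19.7 ± 5.00 FPKM in MacB2-3wk and 8.51 ± 1.72 FPKM in MacB2-N (log2 fold change 1.10, SE 0.21, adjusted p = 8.34e-04). Hif1a, the oxygen-labile subunit, averaged 96.8 ± 5.49 FPKM in MacB2-3wk and 48.1 ± 7.06 FPKM in MacB2-N, at the fold limit (log2 fold change 1.00, SE 0.21, adjusted p = 0.00198). Egln2 lies outside the set, and among the 3 Egln genes the share of Egln3 was 45% ± 6.27 in MacB2-3wk and 2.15% ± 0.652 in MacB2-N.

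Of the other 12 hypoxia-induced genes, 8 rose at 3 weeks and 2 at 2 weeks. Bnip3 (ENSMUSG00000078566, chr7:138890836-138909519), a receptor that sends mitochondria to autophagy, had 23.8, 18.3 and 23.4 FPKM in MacB2-N, 81, 48.7 and 213 FPKM in MacB2-2wk and 311, 206 and 340.2 FPKM in MacB2-3wk. Tumour and naive libraries were far apart, and MacB2-2wk replicate 3 lay inside the 3-week range (log2 fold change 2.07, SE 0.37, adjusted p = 0.00446 at 2 weeks and log2 fold change 3.63, SE 0.37, adjusted p = 1.59e-06 at 3 weeks). Its paralogue Bnip3l, also a mitophagy receptor, did not follow (-0.38, adjusted p = 0.168). Ero1l, an oxidase that drives disulfide formation in the endoplasmic reticulum, had 2.00, 2.13 and 1.57 FPKM in MacB2-N, 8.58, 4.88 and 5.78 FPKM in MacB2-2wk and 16.6, 14.3 and 17.4 FPKM in MacB2-3wk, 3 groups without overlap (log2 fold change 1.33, SE 0.20, adjusted p = 8.41e-04 at 2 weeks and log2 fold change 2.56, SE 0.20, adjusted p = 1.14e-07 at 3 weeks). Adm, which encodes the vasodilator adrenomedullin, averaged 11.5 ± 3.98 FPKM in MacB2-3wk and 0.485 ± 0.173 FPKM in MacB2-N (log2 fold change 3.03, SE 0.51, adjusted p = 2.96e-04). P4ha1 and P4ha2, the catalytic subunits of collagen prolyl hydroxylase, rose by 1.26 and 1.94 on the log2 scale (adjusted p = 1.41e-05 and 0.0491); P4ha1 libraries were tightly grouped, while P4ha2 had 13.4, 16.9 and 5.21 FPKM in MacB2-3wk and 5.90, 0.0901 and 2.81 FPKM in MacB2-N, which overlapped. Hilpda, a lipid droplet protein that inhibits triglyceride lipase, Ankrd37, an ankyrin repeat protein, and Ndrg1 rose by 1.61, 1.78 and 1.48 (adjusted p = 3.40e-04, 0.00894 and 0.0242). Mxi1, an antagonist of Myc, and Higd1a, a mitochondrial membrane protein, passed the adjusted p under 2-fold (0.85, adjusted p = 0.00391 and 0.83, adjusted p = 0.0462). Ddit4, an inhibitor of mTOR signalling, did not pass and varied widely among naive libraries, with 58.7, 34.9 and 50.7 FPKM in MacB2-3wk and 80.7, 44.9 and 24.5 FPKM in MacB2-N (0.07, adjusted p = 0.980).

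**Figure D2:**
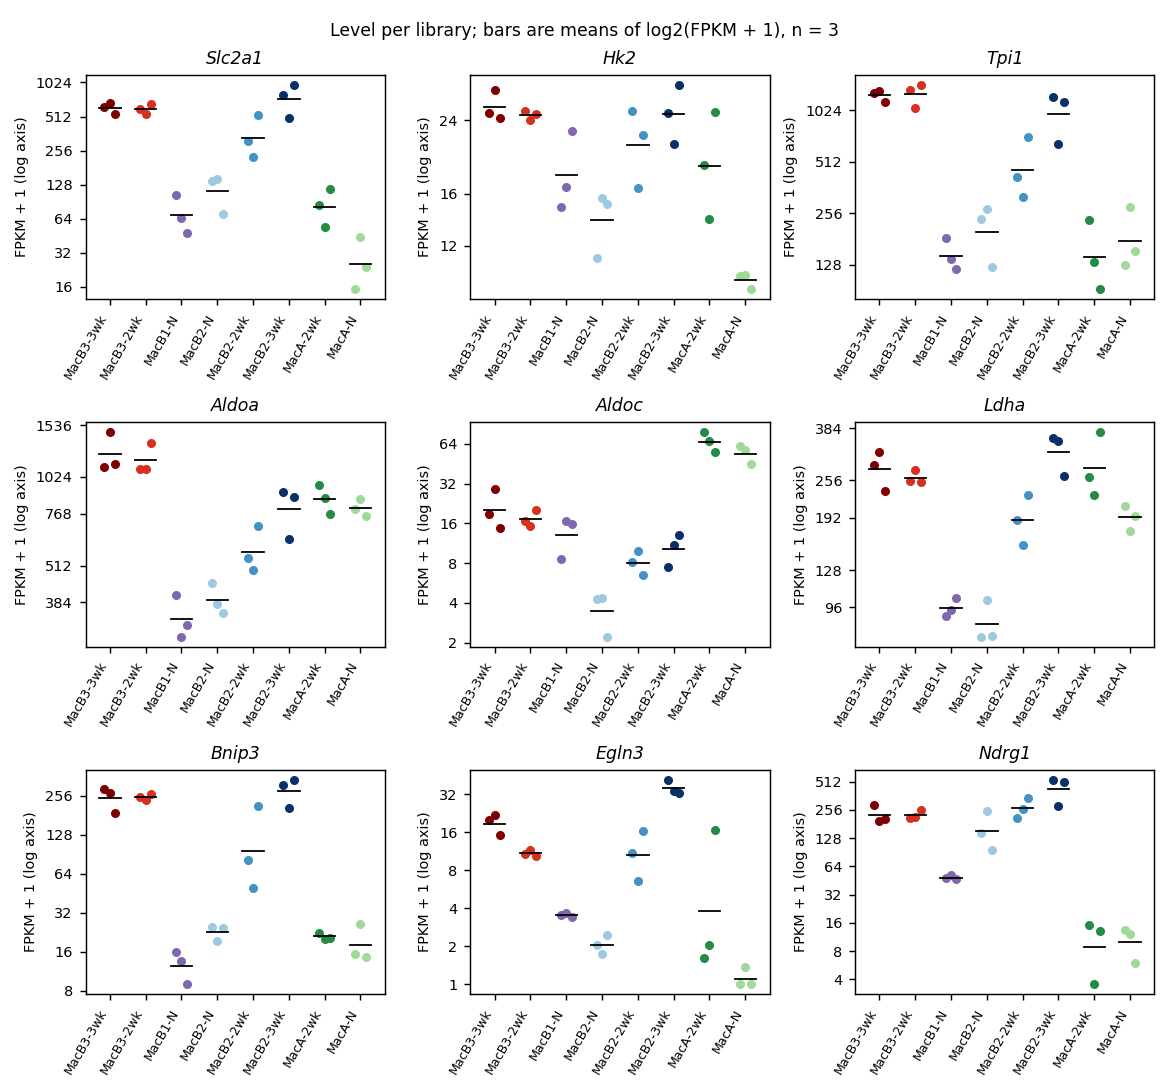
FPKM + 1 on a log axis for 9 of the genes in each library (points) of the 8 groups, with the mean of log2(FPKM + 1) as a bar (n = 3). Slc2a1, Tpi1, Ldha, Bnip3 and Egln3 climb from MacB2-N through MacB2-2wk to MacB2-3wk, and Aldoc is highest and Ndrg1 lowest in the MacA groups.

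Between the tumour time points themselves, 3 of the 36 genes rose in MacB2-3wk relative to MacB2-2wk and none fell, against 4.34% of all genes (3.06% higher and 1.28% lower). These were Bnip3 (log2 fold change 1.55, SE 0.37, adjusted p = 0.0166), Ero1l (log2 fold change 1.23, SE 0.20, adjusted p = 0.00177) and Adm (log2 fold change 2.06, SE 0.51, adjusted p = 0.0205). The median of the set was 0.62 on the log2 scale, against 0.00 over all tested genes, and 32 of the 36 estimates were above 0. Pkm, Ldha, P4ha1 and Mxi1 also passed the adjusted p, under 2-fold (0.53, 0.76, 0.77 and 0.74).

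The 3-week calls were the firmer ones. Leaving out 1 library at a time gave 15 to 21 calls at 3 weeks, and 14 of the 20 genes kept their call in every such fit. Calls were lost when the following single libraries (group and replicate) were left out: Aldoa (MacB2-3wk 1, 3, MacB2-N 2, 3), Egln1 (MacB2-3wk 1, MacB2-N 2), Eno1 (MacB2-3wk 3, MacB2-N 3), Hif1a (MacB2-3wk 2, MacB2-N 1, 3), Ndrg1 (MacB2-3wk 1, 3, MacB2-N 1, 3) and P4ha2 (MacB2-3wk 1, 2, MacB2-N 2, 3). Aldoa, Egln1, Eno1 and Hif1a then slipped under 2-fold, to 0.76 to 0.99 on the log2 scale, and Ndrg1 and P4ha2 had adjusted p of 0.0633 to 0.240. At 2 weeks the 7 calls became 3 without MacB2-N replicate 1, MacB2-N replicate 2 or MacB2-2wk replicate 1, and 4 without MacB2-N replicate 3 or MacB2-2wk replicate 3. Bnip3, Ero1l and Ldha kept theirs; those lost were Slc2a1 (MacB2-2wk 1, 3, MacB2-N 1, 2, 3), Pfkfb3 (MacB2-2wk 1, 2, MacB2-N 1, 2), Aldoc (MacB2-2wk 1, 2, 3, MacB2-N 1, 2, 3) and Egln3 (MacB2-2wk 1, 3, MacB2-N 1, 2, 3), with adjusted p of 0.0516 to 0.238. With only the 2 groups in the fit, no gene was called at 2 weeks. Aldoc also lost its 2-week call with run lane as a replicate block, quantile scaling, median-ratio scaling or no filter. Slc2a1 lost it with a replicate block over all libraries, median-ratio scaling or no filter. At 3 weeks quantile scaling lost Aldoa, Egln1 and P4ha2, and median-ratio scaling lost Aldoa, Hif1a and P4ha2. P4ha2 was also lost with a pseudocount of 0.1 and with no filter. Between the time points Ero1l was called without any 1 library, but with only these groups in the fit it was lost, as were Bnip3 and Adm, leaving no call. Without MacB2-3wk replicate 1 or replicate 3, 1 call was left, and those lost were Bnip3 (MacB2-2wk 1, 2, MacB2-3wk 1, 3) and Adm (MacB2-2wk 3, MacB2-3wk 1, 3), with adjusted p of 0.0517 to 0.0951. Adm was also lost with a pseudocount of 0.1.

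Markers of other cells and of division moved with these groups. The 9 fibroblast markers, all in the table, summed to 37.6 to 129 FPKM in MacB2-N, 186 to 249.8 FPKM in MacB2-2wk and 626 to 1023 FPKM in MacB2-3wk. The 12 neutrophil markers summed to 258 to 321 FPKM in MacB2-N, 578 to 850.4 FPKM in MacB2-2wk and 537 to 1319 FPKM in MacB2-3wk, with Ly6g at 0 throughout. These markers did not move as one. Mmp9, the largest of them in both tumour groups, averaged 19.7 ± 5.98 FPKM in MacB2-N, 436 ± 184 FPKM in MacB2-2wk and 587 ± 396 FPKM in MacB2-3wk. S100a8 also rose, at 11.6 ± 5.10, 76.0 ± 72.8 and 96.5 ± 24.7 FPKM in the same order. Csf3r went the other way, at 206 ± 10.6, 117 ± 41.7 and 66.8 ± 15.2 FPKM. The 8 mitosis genes summed to 5.75 to 11.2 FPKM in MacB2-N, 53 to 94.3 FPKM in MacB2-2wk and 219 to 278 FPKM in MacB2-3wk. Of the 8 epithelial and carcinoma markers, which summed to 3124 to 10299 FPKM in MacB2-N, 399 to 2452 FPKM in MacB2-2wk and 611 to 867 FPKM in MacB2-3wk, Krt18 averaged 39.8 ± 2.56 FPKM in MacB2-3wk and 1.64 ± 0.541 FPKM in MacB2-N, and Epcam stayed near 0 (0.245 ± 0.174 FPKM in MacB2-3wk and 0.481 ± 0.486 FPKM in MacB2-N). The 8 endothelial markers summed to 117 to 422 FPKM in MacB2-N, 160.5 to 467 FPKM in MacB2-2wk and 57 to 70.2 FPKM in MacB2-3wk. The 10 alveolar macrophage markers summed to 382 to 681 FPKM in MacB2-N, 424 to 466 FPKM in MacB2-2wk and 169.8 to 356 FPKM in MacB2-3wk, the 9 markers of T, NK and B cells to 10.3 to 13.9 FPKM in MacB2-N, 22.3 to 29.8 FPKM in MacB2-2wk and 10.3 to 17.4 FPKM in MacB2-3wk, and the 5 of 6 red cell markers in the table to 90.4 to 367 FPKM in MacB2-N, 20.5 to 171 FPKM in MacB2-2wk and 4.89 to 10.1 FPKM in MacB2-3wk. The part of these cells in the changes of the 36 genes was not tested.

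**Figure D3:**
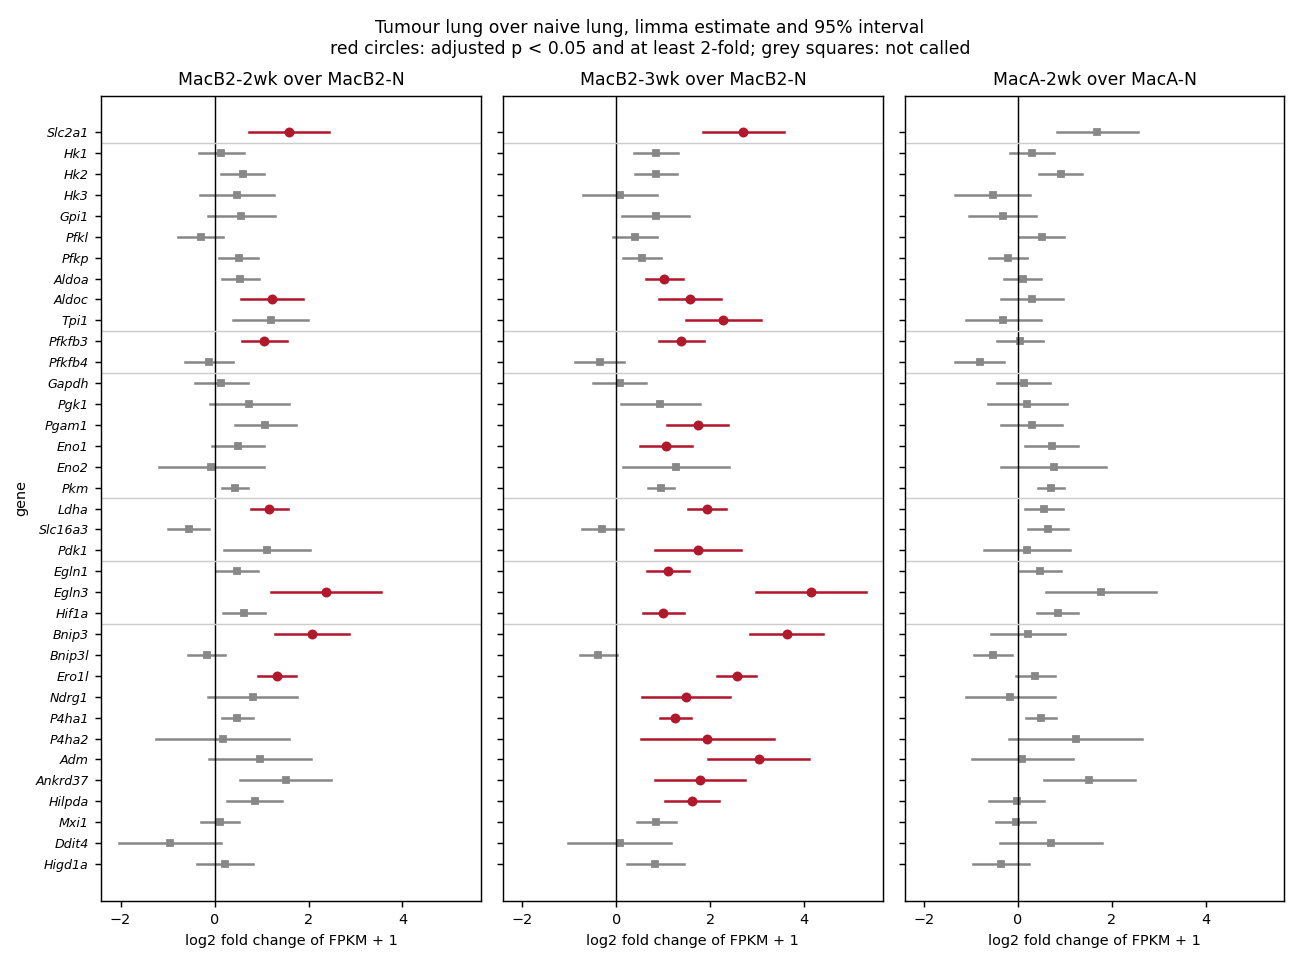
Log2 fold change of FPKM + 1 (x axis) with its 95% interval for each of the 36 genes (y axis), tumour over naive lung in MacB2 at 2 weeks, MacB2 at 3 weeks and MacA at 2 weeks; red circles passed the test. Called genes number 7, 20 and 0, and in MacB2 at 3 weeks 33 of 36 estimates lie above 0.

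In MacA cells, which carry the marker of alveolar macrophages, none of the 36 genes was called in tumour lung at 2 weeks, by limma with Benjamini-Hochberg adjustment. Over all genes 0.787% were called (0.729% higher and 0.0583% lower). At an unadjusted p under 0.05 in limma stood 14 of the 36. The share of all genes at that limit was not counted, so no excess is read from it. The median log2 fold change of the set was 0.29, against 0.05 over all tested genes, and 26 of 36 estimates were above 0. Slc2a1 had 84.2, 53.4 and 116 FPKM in MacA-2wk and 14.3, 43.3 and 22.7 FPKM in MacA-N. The groups did not overlap, and the estimate was as large as in MacB2 at this time but missed the adjusted threshold (log2 fold change 1.69, SE 0.41, adjusted p = 0.0593). Hk2, the inducible hexokinase, had 17.7, 12.9 and 24 FPKM in MacA-2wk and 9.17, 9.25 and 8.46 FPKM in MacA-N, also without overlap (log2 fold change 0.91, SE 0.22, adjusted p = 0.0531). Pkm was the only one of the 36 to pass the adjusted p, under 2-fold, with 287, 235 and 255 FPKM in MacA-2wk and 168, 149.6 and 157 FPKM in MacA-N (log2 fold change 0.70, SE 0.13, adjusted p = 0.0103). Hif1a had 55.8, 41.1 and 48.2 FPKM in MacA-2wk and 23.2, 21.7 and 36 FPKM in MacA-N, again without overlap (0.84, adjusted p = 0.0706). Bnip3, among the largest changes in MacB2, averaged 20.1 ± 1.21 FPKM in MacA-2wk and 17.7 ± 6.41 FPKM in MacA-N here (log2 fold change 0.22, SE 0.37, adjusted p = 0.920). Egln3 was high in 1 library, with 0.600, 1.04 and 15.8 FPKM in MacA-2wk and 0, 0.362 and 0 FPKM in MacA-N (log2 fold change 1.78, SE 0.56, adjusted p = 0.197). That library, MacA-2wk replicate 3, also had the highest summed fibroblast markers of its group, 375 FPKM against 46.3 and 43.5 FPKM in the others. It stood apart in other ways too, with endothelial markers at 228 FPKM against 61.1 and 60.3 FPKM and red cell markers at 260.0 FPKM against 9.74 and 16.4 FPKM. Its protein-coding share of FPKM was the lowest of the 24 libraries, at 10.3%, and its microRNA share the highest, at 75.1%. Between the groups, fibroblast markers summed to 43.5 to 375 FPKM in MacA-2wk and 18.6 to 36 FPKM in MacA-N, markers of T, NK and B cells to 7.23 to 16.1 FPKM in MacA-2wk and 3.56 to 4.45 FPKM in MacA-N, and alveolar macrophage markers to 6252 to 7337 FPKM in MacA-2wk and 7492 to 8829 FPKM in MacA-N, each without overlap. The part of those cells was not tested. Without MacA-2wk replicate 3 no gene of the set was called either; the count was 2 without MacA-2wk replicate 1 or replicate 2, and 1 without MacA-N replicate 2 or replicate 3.

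Whether the 2-week difference itself differed between MacB2 and MacA was tested as an interaction. None of the 36 genes passed in limma (0.221% of all genes did, 0.134% with a higher change in MacB2 and 0.0874% with a lower one). Of the set, 10 had an unadjusted p under 0.05, a limit at which the share of all genes was not counted. The largest differences with such a p were Bnip3, at 1.85 (95% interval 0.75 to 2.96, adjusted p = 0.187), Ddit4, at -1.65 (-3.20 to -0.11, adjusted p = 0.470), and Tpi1, at 1.51 (0.38 to 2.63, adjusted p = 0.339). For Slc2a1 the interval of the difference was -1.32 to 1.10. A different response of the populations was thus not shown for any of these genes, and the intervals are too wide to call the responses alike. Outside the set, the glycerol phosphate dehydrogenase gene Gpd1 did pass this test (2.64, adjusted p = 0.0368).

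The MacB3 population was sampled in tumour lung, and the comparison with MacB2 asked how the CD64-high and CD64-intermediate cells differed there at the same week. At 2 weeks 4 of the 36 genes were higher in MacB3-2wk than in MacB2-2wk and none lower, against 7.36% of all genes (3.15% higher and 4.21% lower). Aldoa had 1092, 1090.2 and 1329.7 FPKM in MacB3-2wk and 540.1, 494 and 694 FPKM in MacB2-2wk (log2 fold change 1.03, SE 0.19, adjusted p = 0.00132). Tpi1 had 1352, 1052 and 1444 FPKM in MacB3-2wk and 414, 319.6 and 715 FPKM in MacB2-2wk (log2 fold change 1.48, SE 0.38, adjusted p = 0.0170). In both genes every MacB3 library was above every MacB2 library. Bnip3 had 249.7, 236 and 264 FPKM in MacB3-2wk and 81, 48.7 and 213 FPKM in MacB2-2wk, tight in MacB3 and broad in MacB2 (log2 fold change 1.39, SE 0.37, adjusted p = 0.0215). Aldoc averaged 16.4 ± 2.42 FPKM in MacB3-2wk and 7.18 ± 1.64 FPKM in MacB2-2wk (log2 fold change 1.10, SE 0.32, adjusted p = 0.0320). Pgam1, Pkm, Ero1l and P4ha1 passed the adjusted p under 2-fold (0.98, 0.50, 0.90 and 0.58). The set's median was 0.43, against -0.08 over all tested genes.

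Each of these 4 calls depended on single libraries. The count was 1 without MacB2-2wk replicate 1 or 2 or MacB3-2wk replicate 1 or 3, and 2 without MacB3-2wk replicate 2; calls were lost for Aldoa (MacB2-2wk 1, 2, MacB3-2wk 3), Aldoc (MacB2-2wk 1, 3, MacB3-2wk 1, 2, 3), Tpi1 (MacB2-2wk 1, 2, MacB3-2wk 1, 3) and Bnip3 (MacB2-2wk 1, 2, MacB3-2wk 1, 2, 3). Aldoa then stayed under 2-fold, and the others had adjusted p of 0.0515 to 0.130. With run lane as a replicate block 3 calls were left, Aldoc being lost, and with only these groups in the fit Bnip3 was lost. Quantile scaling lost Aldoa.

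At 3 weeks none of the 36 genes differed between MacB3-3wk and MacB2-3wk in limma, with 2.64% of all genes called (1.61% higher and 1.03% lower). At an unadjusted p under 0.05 stood 6 of the 36, and the share of all genes at that limit was not counted. The median of the set was -0.20, and 25 of 36 estimates were below 0. Slc2a1 averaged 607 ± 68.3 FPKM in MacB3-3wk and 756 ± 246 FPKM in MacB2-3wk (95% interval of the log2 difference -1.12 to 0.59), and Bnip3 averaged 249 ± 54.8 FPKM in MacB3-3wk and 286 ± 70.3 FPKM in MacB2-3wk (-0.97 to 0.59). Egln3 averaged 18 ± 3.51 FPKM in MacB3-3wk and 35.2 ± 4.87 FPKM in MacB2-3wk (-0.94, adjusted p = 0.464), and Adm 4.19 ± 1.95 FPKM in MacB3-3wk and 11.5 ± 3.98 FPKM in MacB2-3wk (-1.29, adjusted p = 0.216). Between week 3 and week 2 of MacB3 itself no gene of the set passed in limma, and 1 had an unadjusted p under 0.05 (Bnip3l); 0.315% of all genes were called (0.28% higher and 0.035% lower), and the median was 0.05. Slc2a1, for one, averaged 607 ± 68.3 FPKM in MacB3-3wk and 599.6 ± 62.6 FPKM in MacB3-2wk. The interaction of population and week passed for none of the 36 genes, as for 0% of all genes. In limma 7 of the set had an unadjusted p under 0.05, and 34 of 36 estimates were below 0, with a median of -0.54 against 0.02 over all tested genes. The share of all genes at that unadjusted limit was not counted, here or between the weeks of MacB3. The 8 mitosis genes summed to 233 to 423 FPKM in MacB3-3wk, 192 to 221 FPKM in MacB3-2wk and 219 to 278 FPKM in MacB2-3wk, against 53 to 94.3 FPKM in MacB2-2wk. The marker lists named next were lower in MacB3 than in MacB2 without overlap. At 2 weeks fibroblast markers summed to 36.6 to 79.6 FPKM in MacB3-2wk and 186 to 249.8 FPKM in MacB2-2wk, neutrophil markers to 152 to 388 FPKM in MacB3-2wk and 578 to 850.4 FPKM in MacB2-2wk, endothelial markers to 53 to 96.9 FPKM in MacB3-2wk and 160.5 to 467 FPKM in MacB2-2wk, alveolar macrophage markers to 77.1 to 116 FPKM in MacB3-2wk and 424 to 466 FPKM in MacB2-2wk, and markers of T, NK and B cells to 5.01 to 11.9 FPKM in MacB3-2wk and 22.3 to 29.8 FPKM in MacB2-2wk. At 3 weeks the fibroblast sum was 251 to 383 FPKM in MacB3-3wk and 626 to 1023 FPKM in MacB2-3wk, the neutrophil sum 228 to 360.1 FPKM in MacB3-3wk and 537 to 1319 FPKM in MacB2-3wk, the endothelial sum 35.8 to 41.8 FPKM in MacB3-3wk and 57 to 70.2 FPKM in MacB2-3wk, the alveolar macrophage sum 90.1 to 156 FPKM in MacB3-3wk and 169.8 to 356 FPKM in MacB2-3wk, the T, NK and B cell sum 4.12 to 8.80 FPKM in MacB3-3wk and 10.3 to 17.4 FPKM in MacB2-3wk, and the epithelial and carcinoma sum 285 to 316 FPKM in MacB3-3wk and 611 to 867 FPKM in MacB2-3wk. The part of division or of those cells in the differences was not tested.

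**Figure D4:**
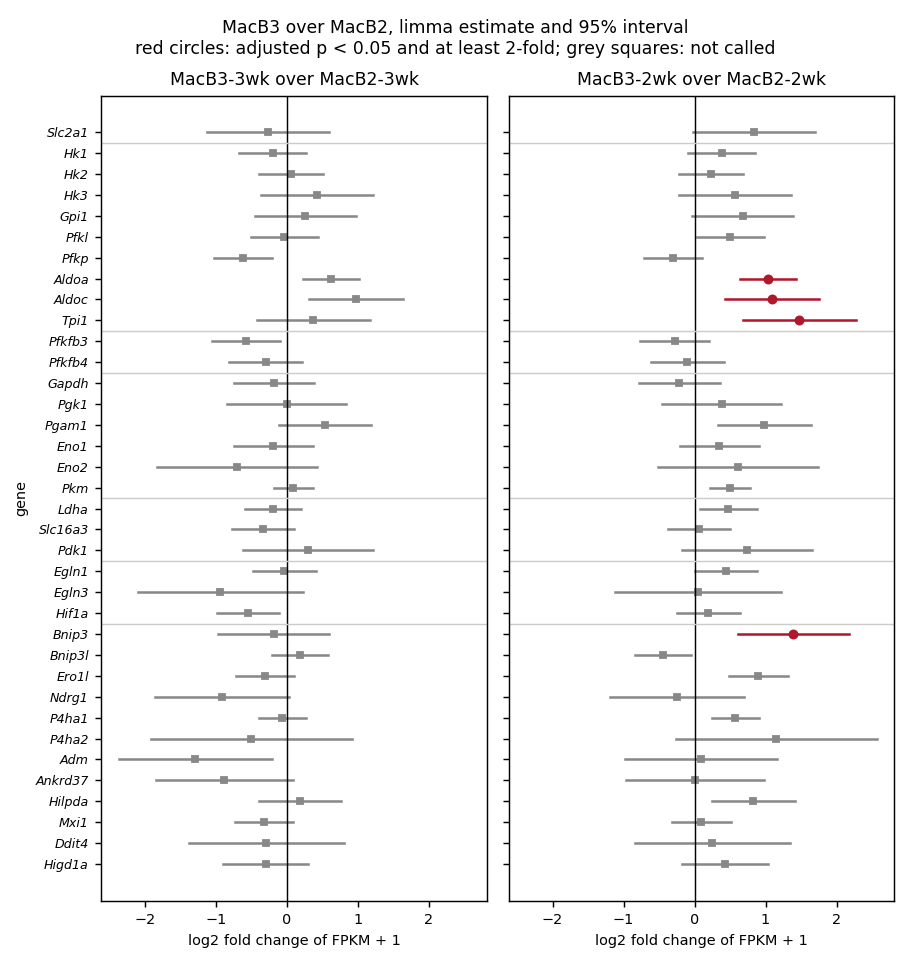
Log2 fold change of FPKM + 1 (x axis) with its 95% interval for the 36 genes (y axis), MacB3 over MacB2 at 3 weeks and at 2 weeks; red circles passed the test. Aldoa, Aldoc, Tpi1 and Bnip3 passed at 2 weeks and no gene at 3 weeks, where 25 of 36 estimates lie below 0.

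Set against MacA cells from tumour lung at 2 weeks, MacB3-2wk was higher in 15 of the 36 genes and lower in 2, with 14.5% of all genes called (7.2% higher and 7.28% lower). The set's median was 0.96, against -0.06. Ndrg1 had 211, 212 and 253 FPKM in MacB3-2wk and 14.2, 2.57 and 12.2 FPKM in MacA-2wk (log2 fold change 4.66, SE 0.45, adjusted p = 2.97e-07). Bnip3 had 249.7, 236 and 264 FPKM in MacB3-2wk and 21.5, 19.3 and 19.5 FPKM in MacA-2wk (log2 fold change 3.57, SE 0.37, adjusted p = 8.36e-07), and Tpi1 had 1352, 1052 and 1444 FPKM in MacB3-2wk and 231, 132 and 91.2 FPKM in MacA-2wk (log2 fold change 3.16, SE 0.38, adjusted p = 4.72e-06). No library of one population reached the range of the other in these 3 genes. Uptake and upper glycolysis gave 6 of the higher genes, Tpi1 included, with Slc2a1 (2.88), Hk3 (2.62), Gpi1 (2.25), Hk1 (1.96) and Pfkl (1.00). Pgk1, Pgam1 and Eno1 of lower glycolysis, the lactate exporter Slc16a3, and Ankrd37, Ddit4 and Higd1a made up the rest, at 1.14 to 2.92. Ldha did not differ past the threshold, averaging 261 ± 13.4 FPKM in MacB3-2wk and 287 ± 74.3 FPKM in MacA-2wk (-0.11, adjusted p = 0.766). The lower genes were Aldoc, with 15.7, 14.3 and 19 FPKM in MacB3-2wk and 77.3, 66.1 and 54.4 FPKM in MacA-2wk (log2 fold change -1.94, SE 0.32, adjusted p = 1.50e-04), and Bnip3l, with 22.7, 22 and 23 FPKM in MacB3-2wk and 69, 48.8 and 50.9 FPKM in MacA-2wk (log2 fold change -1.26, SE 0.19, adjusted p = 6.33e-05). Calls lost without 1 library were Ankrd37 (MacA-2wk 1), Higd1a (MacA-2wk 3) and Pfkl (MacA-2wk 1, 2, MacB3-2wk 1), the first at an adjusted p of 0.0748 and the others at 0.93 to 0.99 on the log2 scale. Fibroblast markers summed to 36.6 to 79.6 FPKM in MacB3-2wk and 43.5 to 375 FPKM in MacA-2wk, and epithelial and carcinoma markers to 138 to 588 FPKM in MacB3-2wk and 352 to 1161 FPKM in MacA-2wk, both with overlap, and alveolar macrophage markers to 77.1 to 116 FPKM in MacB3-2wk and 6252 to 7337 FPKM in MacA-2wk; their part was not tested.

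In naive lung the set divided between the populations rather than moving one way. Relative to MacA-N, 10 of the 36 genes were higher and 7 lower in MacB2-N, against 20.9% of all genes called (10.7% higher and 10.2% lower), and 9 were higher and 8 lower in MacB1-N, against 23.7% (15% higher and 8.71% lower). These shared the MacA-N libraries. The lactate exporter Slc16a3 had 188, 215 and 155 FPKM in MacB1-N, 213, 211 and 181 FPKM in MacB2-N and 27.4, 16 and 25.8 FPKM in MacA-N. Ddit4 had 120.1, 101 and 49.5 FPKM in MacB1-N, 80.7, 44.9 and 24.5 FPKM in MacB2-N and 1.42, 1.20 and 1.23 FPKM in MacA-N. MacA-N was far below both MacB groups in these 2 genes, with log2 fold changes of 2.98 and 3.11 for Slc16a3 and 5.22 and 4.32 for Ddit4 (MacB1-N and MacB2-N over MacA-N). Slc2a1, Hk1, Pfkl, Ndrg1 and Ankrd37 were also higher in both. Aldoc lay the other way, with 7.52, 15.6 and 14.7 FPKM in MacB1-N, 3.26, 3.38 and 1.22 FPKM in MacB2-N and 60.9, 56.2 and 43.7 FPKM in MacA-N (-2.05 and -3.97). Aldoa, Ldha, Pdk1, Bnip3l and Hilpda were lower in both as well. Ldha had 88.7, 92.6 and 102 FPKM in MacB1-N, 75.5, 100.3 and 75.6 FPKM in MacB2-N and 209.8, 173 and 193 FPKM in MacA-N, without overlap between MacB and MacA. Hk3, a hexokinase of myeloid cells, was lower in MacB1-N (-1.05, adjusted p = 0.0393) and higher in MacB2-N (1.03, adjusted p = 0.0467) than in MacA-N.

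The quantile scaling set the median of all tested genes at -0.03 in the MacB1-N comparison with MacA-N, and the set then stood at 8 higher and 9 lower. In MacB2-N it gave 7 higher and 7 lower. Of all genes called with this scaling, 47.2% were higher in MacB1-N and 47.0% were higher in MacB2-N, each over MacA-N. Calls in MacB1-N over MacA-N that were lost without 1 library were Slc2a1 (MacA-N 1, MacB1-N 1), Pfkl (MacB1-N 3), Egln3 (MacA-N 1, 3, MacB1-N 1, 2, 3), Hk3 (MacA-N 2, 3, MacB1-N 1, 3), Pfkfb4 (MacA-N 2, MacB1-N 3), Ldha (MacA-N 1, MacB1-N 1, 2), Pdk1 (MacA-N 1, 2, MacB1-N 3) and Hilpda (MacA-N 3), with log2 fold changes of -1.28 to -0.70 for those lower in MacB1-N and 0.97 to 1.70 for those higher. In MacB2-N over MacA-N they were Hk3 (MacA-N 1, 2, MacB2-N 2, 3), Pgk1 (MacA-N 1, 3, MacB2-N 1, 2), Eno1 (MacA-N 1, MacB2-N 1, 2), Ankrd37 (MacA-N 2) and Aldoa (MacA-N 2, MacB2-N 3), the higher genes then at 0.75 to 1.38 and Aldoa at -0.99 to -0.97. Several marker lists separated the naive groups as well. Fibroblast markers summed to 141 to 167 FPKM in MacB1-N, 37.6 to 129 FPKM in MacB2-N and 18.6 to 36 FPKM in MacA-N, markers of T, NK and B cells to 31.7 to 55.5 FPKM in MacB1-N, 10.3 to 13.9 FPKM in MacB2-N and 3.56 to 4.45 FPKM in MacA-N, and mitosis genes to 43.6 to 74.4 FPKM in MacB1-N, 5.75 to 11.2 FPKM in MacB2-N and 131 to 193 FPKM in MacA-N, each without overlap between MacB and MacA. Endothelial markers summed to 387 to 498 FPKM in MacB1-N, 117 to 422 FPKM in MacB2-N and 76 to 124 FPKM in MacA-N, neutrophil markers to 96.1 to 203 FPKM in MacB1-N, 258 to 321 FPKM in MacB2-N and 94.6 to 188 FPKM in MacA-N, epithelial and carcinoma markers to 3107 to 12868 FPKM in MacB1-N, 3124 to 10299 FPKM in MacB2-N and 1102 to 5833 FPKM in MacA-N, and alveolar macrophage markers, which mark the MacA gate itself, to 682 to 1198 FPKM in MacB1-N, 382 to 681 FPKM in MacB2-N and 7492 to 8829 FPKM in MacA-N. The part of these cells in the differences was not tested.

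Between the naive MacB populations 3 of the 36 genes differed, with 5.21% of all genes called (3.5% higher and 1.7% lower). Aldoc was higher in MacB1-N (log2 fold change 1.91, SE 0.32, adjusted p = 5.94e-04). Hk3 had 7.90, 11 and 4.03 FPKM in MacB1-N and 26.4, 29.5 and 47.5 FPKM in MacB2-N, and Ndrg1 47, 50.6 and 45.5 FPKM in MacB1-N and 144, 250.5 and 95.9 FPKM in MacB2-N; both were lower in MacB1-N without overlap (log2 fold change -2.08, SE 0.38, adjusted p = 0.00145 for Hk3 and log2 fold change -1.65, SE 0.45, adjusted p = 0.0309 for Ndrg1). The call of Ndrg1 was lost without MacB1-N 1, 2, 3, MacB2-N 1, 2 (adjusted p of 0.0704 to 0.173), and 5 genes were called without MacB2-N replicate 3. With only these 2 groups in the fit none was called. Of the marker sums above, those of fibroblasts, of T, NK and B cells, of mitosis and of alveolar macrophages lay higher in MacB1-N than in MacB2-N without overlap, and that of neutrophils lower; their part was not tested.

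Shares of genes within families are given here as a description with no test. The gene with the largest mean share differed between groups for the hexokinases and for Pfkfb3 and Pfkfb4, and not for the other families below. Shares are of the summed FPKM of the named genes, a level per length of transcript, and errors are SD over 3 libraries. Among Hk1, Hk2 and Hk3, the share of Hk2 was 47.3% ± 10.0 in MacA-2wk and 28.9% ± 5.66 in MacA-N. That of Hk3, the largest in naive MacA, was 30.7% ± 14.8 in MacA-2wk and 50.5% ± 7.88 in MacA-N. Between the naive MacB populations the Hk3 share was 17% ± 7.57 in MacB1-N and 47.3% ± 6.95 in MacB2-N, while Hk1 had 45.1% ± 3.08 in MacB1-N and 34.4% ± 7.75 in MacB2-N. In tumour lung at 3 weeks Hk1 led in MacB2, with 42.6% ± 3.37 in MacB2-3wk, and Hk3 in MacB3, with 43.1% ± 8.98 in MacB3-3wk. Pfkfb3 made up 43.6% ± 14.1 in MacB2-N, 63.6% ± 5.39 in MacB2-2wk and then 72.1% ± 4.60 in MacB2-3wk of the sum of Pfkfb3 and Pfkfb4. In MacA its share was 44.2% ± 4.86 in MacA-2wk and 30.2% ± 4.02 in MacA-N, so Pfkfb4 was the larger part in both MacA groups and in MacB2-N. Aldoc was a small part of the aldolase sum, highest at 7.06% ± 0.405 in MacA-2wk and lowest at 0.653% ± 0.280 in MacB2-N. Slc2a1 dominated the sum of Slc2a1 and the related transporter gene Slc2a3, with the highest share at 99.9% ± 0.0875 in MacB3-2wk and the lowest at 88.2% ± 11 in MacB1-N. Among phosphofructokinases Pfkp led in every group, at 67.4% ± 3.81 in MacB3-3wk and 89.3% ± 0.403 in MacA-N at the extremes.

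**Figure D5:**
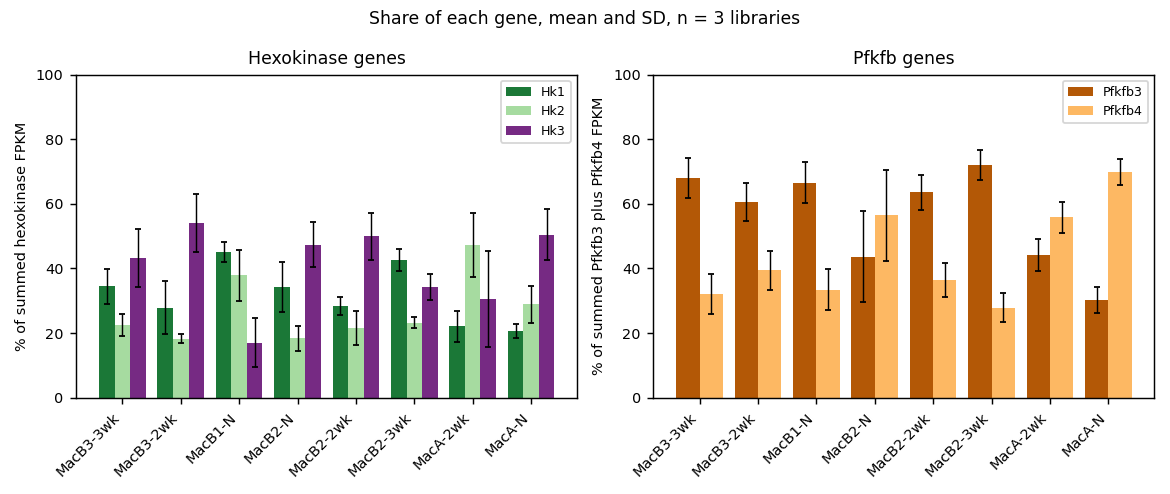
Share of each gene (%, y axis; mean with SD as error bar, n = 3 libraries) in the summed FPKM of Hk1, Hk2 and Hk3 (left) and of Pfkfb3 and Pfkfb4 (right) in the 8 groups. By mean share, Hk1 leads in MacB1-N and MacB2-3wk and Hk2 in MacA-2wk, Hk3 leads in the other groups, and the Pfkfb3 share is lowest in MacA-N. In MacA-2wk replicate 1 Hk3 is above Hk2.

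The promoters of the set were also read for the HIF core element, as a description. RefSeq promoter windows on GRCm38.p6, from 250 bases before to 50 after each start site, were found for 33 of the 36 genes (46 windows, as some genes have several starts); Bnip3l, Ero1l and Ndrg1 were not matched. The letters ACGTG or GCGTG were searched on both strands, a palindromic CACGTG being counted once on each strand. At least 1 match stood in 38 of the 46 windows (82.6%), against 43.8% of all 32851 windows, and ACGTG alone in 27 (58.7%), against 19.6%. The windows of the set were also richer in G and C, with a median of 64.5% against 52.7%, and a match is a description of the letters, not of binding. The genes were chosen as glycolysis and hypoxia-response genes, so the comparison with all windows does not bear on why their levels changed. The 250 bases before the start are shown 5′ to 3′ on the gene's strand for 6 genes that rose in MacB2, with matches in capitals (CACGT and CACGC are the motifs on the other strand). Slc2a1 (chr4:119108495-119108744, plus strand) has 2 matches, Ldha (chr7:46845554-46845803, plus strand) has 5, of which 2 palindromes count on both strands, and Bnip3 (chr7:138909507-138909756, minus strand) has 5, of which 1 palindrome counts on both strands. P4ha1 (chr10:59323046-59323295, plus strand) has 3 and Egln3 (chr12:54203875-54204124, minus strand) has 1. Tpi1 (chr6:124814159-124814408, minus strand), shown for contrast, has none in these 250 bases and also rose in MacB2.
Slc2a1: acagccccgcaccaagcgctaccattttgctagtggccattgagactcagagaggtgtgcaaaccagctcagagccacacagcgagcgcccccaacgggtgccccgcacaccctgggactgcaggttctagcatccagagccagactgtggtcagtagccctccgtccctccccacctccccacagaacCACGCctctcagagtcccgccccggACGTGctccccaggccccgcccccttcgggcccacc
Ldha: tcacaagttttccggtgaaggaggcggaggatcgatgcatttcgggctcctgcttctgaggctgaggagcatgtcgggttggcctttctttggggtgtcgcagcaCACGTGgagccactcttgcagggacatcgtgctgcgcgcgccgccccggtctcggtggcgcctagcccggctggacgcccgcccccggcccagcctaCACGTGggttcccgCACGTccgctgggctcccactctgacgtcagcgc
Bnip3: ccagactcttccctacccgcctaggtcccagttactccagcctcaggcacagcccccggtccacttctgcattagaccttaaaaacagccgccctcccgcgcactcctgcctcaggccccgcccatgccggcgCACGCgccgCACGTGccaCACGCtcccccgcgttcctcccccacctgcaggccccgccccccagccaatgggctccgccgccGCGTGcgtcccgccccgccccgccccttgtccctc
P4ha1: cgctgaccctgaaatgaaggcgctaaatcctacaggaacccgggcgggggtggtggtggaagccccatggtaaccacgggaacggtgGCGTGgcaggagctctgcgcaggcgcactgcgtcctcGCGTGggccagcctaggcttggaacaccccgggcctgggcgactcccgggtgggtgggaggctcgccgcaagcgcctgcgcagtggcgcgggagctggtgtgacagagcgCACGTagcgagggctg
Egln3: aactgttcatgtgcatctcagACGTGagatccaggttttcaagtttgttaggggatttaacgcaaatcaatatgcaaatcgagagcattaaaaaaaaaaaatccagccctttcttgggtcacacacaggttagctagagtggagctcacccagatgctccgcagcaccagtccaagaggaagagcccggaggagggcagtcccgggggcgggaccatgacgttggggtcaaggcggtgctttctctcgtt
Tpi1: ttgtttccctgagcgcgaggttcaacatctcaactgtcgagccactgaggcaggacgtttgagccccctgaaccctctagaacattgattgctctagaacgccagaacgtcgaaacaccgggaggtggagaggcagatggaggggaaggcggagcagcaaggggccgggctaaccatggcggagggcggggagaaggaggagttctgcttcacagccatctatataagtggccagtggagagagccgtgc

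Genes of the same pathways outside the set were read from lists of 42 further HIF pathway genes (40 tested) and 45 further genes of glycolysis and carbon use (39 tested). In MacB2-3wk over MacB2-N the HIF list had 13 higher and 3 lower, with 14.7% of all genes called (9.67% higher and 5.04% lower), and a median log2 fold change of 0.53. Arg1, arginase, had the largest change there, averaging 237 ± 65.1 FPKM in MacB2-3wk and 0.715 ± 0.124 FPKM in MacB2-N (log2 fold change 7.08, SE 0.44, adjusted p = 1.35e-08); Stc1 and Nos2 rose by 3.69 and 2.86 (adjusted p = 8.99e-07 and 1.35e-06). The carbon list had 3 higher and 4 lower, a share near that of all genes, with a median of -0.24. Its lactate transporter Slc16a1 averaged 17.3 ± 5.80 FPKM in MacB2-3wk and 1.36 ± 0.0560 FPKM in MacB2-N (log2 fold change 2.91, SE 0.28, adjusted p = 7.33e-07), unlike the exporter Slc16a3 of the set. At 2 weeks the HIF list had 4 higher and the carbon list 4 higher, and neither had a gene lower, with 1.88% of all genes called (1.66% higher and 0.227% lower). Vegfa, a classic HIF target, did not pass in MacB2 at 3 weeks (0.49, adjusted p = 0.384), averaging 268 ± 79.7 FPKM in MacB2-3wk and 189 ± 53.3 FPKM in MacB2-N. Epas1, the other HIF alpha gene, fell to 19.4 ± 3.55 FPKM in MacB2-3wk, against 166 ± 153 FPKM in MacB2-N (log2 fold change -2.66, SE 0.52, adjusted p = 9.81e-04), in the groups whose endothelial markers summed to 57 to 70.2 FPKM in MacB2-3wk and 117 to 422 FPKM in MacB2-N; the part of those cells was not tested. Arnt, the HIF partner, averaged 19.6 ± 2.87 FPKM in MacB2-3wk and 27.3 ± 2.70 FPKM in MacB2-N (-0.46, adjusted p = 0.196). In MacA-2wk over MacA-N the HIF list had 2 higher, Arg1 and Hmox1, and the carbon list none, with 0.787% of all genes called (0.729% higher and 0.0583% lower); Arg1 averaged 13.1 ± 11.5 FPKM in MacA-2wk and 0.176 ± 0.240 FPKM in MacA-N (log2 fold change 3.30, SE 0.44, adjusted p = 4.56e-04). In MacB3-2wk over MacB2-2wk the HIF list had 5 higher and 1 lower and the carbon list 5 lower, led by Arg1 (2.72) and Taldo1 (-1.03), with 7.36% of all genes called (3.15% higher and 4.21% lower). In MacB3-2wk over MacA-2wk the HIF list had 8 higher and 4 lower, with 14.5% of all genes called (7.2% higher and 7.28% lower); Vegfa averaged 254 ± 87.2 FPKM in MacB3-2wk and 25.9 ± 11.1 FPKM in MacA-2wk (log2 fold change 3.26, SE 0.37, adjusted p = 2.01e-06).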

How the data were processed

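RNA was sequenced from 24 libraries, 3 in each of 8 groups. The deposited table gives 1 value per gene and library for 37979 genes, 14133 of them at 0 everywhere. The values are FPKM, per the submitters' processing notes, which name FastQC, TopHat2 version 2, Cufflinks 2.0.2 and mm10; the table's header names no unit. The sources used here do not say whether counting used strand and hold no read totals, so depth and its precision are unknown. Only 1 of the 36 listed loci overlapped its gene's GRCm38 position, so positions were taken from GENCODE by Ensembl identifier. The series text gives the 2-week MacB3 samples the 3-week name; the sample titles were followed.

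The filter kept the 17156 genes that averaged 1 FPKM or more in any group, all 36 members among them. Values were taken as log2(FPKM + 1) and fitted with limma 3.58.1 in R 4.3.3, with 1 mean per group over all 24 libraries, a trended prior, and p-values adjusted by Benjamini-Hochberg over all tested genes in each of 13 comparisons, 2 of them interactions. A call needed an adjusted p under 0.05 and a 2-fold change. The members and the pathway and marker lists were chosen with earlier results of these data known. All 36 members are named; from the other pathway lists at most 4 called genes per comparison with the smallest adjusted p, plus Slc2a3, Vegfa, Arg1, Epas1 and Arnt; 1 gene that this rule names is not reported here. Near-identical copies were found with blastn 2.17.0 (at least 95% identity over 100 bases). Alternatives were pseudocount, filter, scaling, fold limit, groups in the fit, replicate block and leaving out each library. The code was tested on simulated data.

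Replicate numbers of the MacB groups are also run lanes. The residuals of same-numbered MacB libraries correlated by -0.07 to 0.21 (median 0.00, 45 pairs), and 1 pair was over 0.1. From these pooled values the numbers were not taken to pair the samples in the main fit. Most of the 45 pairs join naive with tumour groups or week 2 with week 3. The pooled values therefore cannot show whether populations of the same condition were paired. MacB2-2wk and MacB3-2wk gave 0.082, 0.070 and 0.050 for same numbers, against -0.053 to -0.023 for different ones. MacB1-N and MacB2-N gave 0.084, 0.031 and 0.21, against -0.15 to 0.087. MacB2-3wk and MacB3-3wk gave 0.032, -0.073 and -0.055, against -0.054 to 0.11. The residuals of a group's libraries cancel out for each gene. Values for different numbers are thus not a separate baseline for those of same numbers. Whether same-numbered libraries of these groups shared mice was not tested. Python 3.11.15 with matplotlib 3.10.9 drew the figures.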

Additional observations from a re-analysis of the deposited data

Results flagged for a closer look

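Slc16a3, the lactate exporter gene, had a 2-week tumour change in MacB2 that differed from that in MacA by -1.19 on the log2 scale (SE 0.29, n = 3 libraries per group, limma adjusted p = 0.11 over all genes, unadjusted p = 6.49e-04). It drew attention because the groups moved in opposite directions without overlap: Slc16a3 had 126, 138 and 147 FPKM in MacB2-2wk and 213, 211 and 181 FPKM in MacB2-N, and 41.3, 28.8 and 37.8 FPKM in MacA-2wk and 27.4, 16 and 25.8 FPKM in MacA-N. Every MacB2-2wk library lay below every MacB2-N library, and every MacA-2wk library above every MacA-N library. The difference did not pass the adjusted threshold.

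Ero1l, the oxidase gene of the endoplasmic reticulum, had a MacB3 to MacB2 difference at 3 weeks that differed from that at 2 weeks by -1.21 (SE 0.28, limma adjusted p = 0.394, unadjusted p = 3.33e-04). It had 14.2, 12.8 and 11.5 FPKM in MacB3-3wk and 16.6, 14.3 and 17.4 FPKM in MacB2-3wk, and 13.1, 14 and 10.7 FPKM in MacB3-2wk and 8.58, 4.88 and 5.78 FPKM in MacB2-2wk. MacB3 libraries lay below all MacB2 libraries at 3 weeks and above them at 2 weeks, and the difference did not pass the adjusted threshold.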

How the results depend on the processing

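Across the 11 direct comparisons there were 88 gene calls, of which 47 were kept under every alternative tried, and none reversed; no filter and median-ratio scaling kept 82 each, quantile scaling kept 78, and a fit of only the groups compared kept 64. Without a fold minimum the calls numbered 8 for MacB3-2wk over MacB2-2wk, 7 for MacB2-3wk over MacB2-2wk, 6 for MacB1-N over MacB2-N and 1 for MacA-2wk over MacA-N. The share of all genes called is not given for changed settings or left-out libraries. Counts under them show only how the calls of the set moved. With only the groups compared in the fit, 0 genes were called for MacB2-3wk over MacB2-2wk, MacB2-2wk over MacB2-N and MacB1-N over MacB2-N. With all libraries limma called 3, 7 and 3 genes there, and at an unadjusted p under 0.05 it had 20, 20 and 12. The share of all genes at that unadjusted limit was not counted. A fit of only 2 groups has fewer libraries for the spread, and the reason for its losses was not tested. That fit also lost Bnip3 in MacB3-2wk over MacB2-2wk, Eno1, Ndrg1 and P4ha2 in MacB2-3wk over MacB2-N, Ankrd37 in MacB3-2wk over MacA-2wk, Slc2a1, Hk3 and Pdk1 in MacB1-N over MacA-N, and Hk3, Pgk1 and Eno1 in MacB2-N over MacA-N. MacA-2wk over MacA-N had 2 calls with a pseudocount of 0.1 and 1 with quantile scaling. Quantile scaling also moved the split of calls over all genes: the share called higher was 56.2% with it and 42.8% without for MacB3-2wk over MacB2-2wk, 77.8% and 88.9% for MacB3-3wk over MacB3-2wk, 74.6% and 87.9% for MacB2-2wk over MacB2-N, 52.7% and 65.7% for MacB2-3wk over MacB2-N, 47.2% and 63.2% for MacB1-N over MacA-N, and 50.1% and 67.3% for MacB1-N over MacB2-N. Leaving out 1 library gave 1 to 4 calls for MacB3-2wk over MacB2-2wk, 1 to 3 for MacB2-3wk over MacB2-2wk, 3 to 7 for MacB2-2wk over MacB2-N, 15 to 21 for MacB2-3wk over MacB2-N, 0 to 2 for MacA-2wk over MacA-N, 15 to 18 for MacB3-2wk over MacA-2wk, 12 to 16 for MacB1-N over MacA-N, 14 to 17 for MacB2-N over MacA-N and 2 to 5 for MacB1-N over MacB2-N. The comparisons with no call kept 0 in each such fit, apart from MacA. With a replicate block over all libraries 86 of the 88 calls were kept, Slc2a1 (MacB2-2wk over MacB2-N) and P4ha2 (MacB2-3wk over MacB2-N) being lost, and with run lane as the block 35 of 37, Aldoc being lost in MacB2-2wk over MacB2-N and in MacB3-2wk over MacB2-2wk; the counts moved by under 1.5 times. Ankrd37 lost its call in MacB2-3wk over MacB2-N with a pseudocount of 0.1. The depth of the libraries is unknown, and 12 of the 36 genes may share reads with pseudogenes. With other genes counted as well, only 15 of the 36 had no near-identical stretch elsewhere.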
